A study of Mus musculus with 56 samples.

Results

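The Srsf and Hnrnp genes encode RNA-binding proteins that coat and splice pre-mRNA. The members were every protein-coding gene of the count table whose mouse symbol starts with Srsf followed by a digit, or with Hnrnp. The rule found 31 of 57010 genes, of which 11 were Srsf and 20 were Hnrnp genes, and it used no measured value. A further 2 genes matched by symbol but were not protein-coding and were left out.

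SR proteins, encoded by Srsf genes, bind exonic sequences through RNA recognition motifs and recruit splicing factors through a tail rich in arginine and serine. The hnRNP proteins package nascent transcripts, often oppose SR proteins at splice sites, and also act in mRNA export, stability and translation. Many genes of these families carry exons or introns whose inclusion puts a premature stop codon into the mRNA, and the proteins thereby limit their own mRNA through nonsense-mediated decay. HuR, the protein of Elavl1, is itself an RNA-binding protein that recognises stretches rich in U in 3' untranslated regions.

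Gastrocnemius muscle was taken from 28 mice aged 20 to 22 weeks, 7 in each of 4 groups: female controls, female knockouts, male controls and male knockouts. All mice, controls included, carried a GFP-tagged ribosomal protein L10A whose expression was switched on by Cre recombinase under the Mlc1f promoter, which is active in skeletal muscle fibres. The knockouts also carried a floxed Elavl1 gene. From every mouse 1 library was made from RNA bound to the tagged ribosomes and 1 from total RNA of the whole homogenate, giving 56 libraries in 8 groups of 7. Ribosomal RNA below means this tagged-ribosome fraction, not rRNA. The protocol text of the samples speaks of 14 mice of each sex, while the design text of the series speaks of 7, and the libraries carry 14 numbers per sex.

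Elavl1 itself did not pass the test in any comparison of knockouts with controls. In total RNA its levels ran from 53.6 to 92.9 CPM (counts of a gene scaled to a common library total) with a median of 67.7 in female controls and from 60.4 to 79.0 with a median of 73.7 in female knockouts. In males they ran from 59.2 to 100.6 (median 71.2) in controls and from 43.4 to 81.1 (median 70.1) in knockouts. Ribosomal levels of Elavl1 ran from 81.2 to 131.1 CPM (median 101.5) in female controls and from 91.5 to 164.2 (median 123.4) in female knockouts. Those of males ran from 55.4 to 81.5 CPM (median 72.5) in controls and from 52.0 to 116.5 (median 81.9) in knockouts. These are tags from the 3' end of the transcript, which can lie outside the deleted part, so they do not check the genotype, and the groups are called labelled knockouts here.

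Gene counts ran from 0.160 to 3.579 M (mega, median 1.624 M) in ribosomal and from 2.428 to 5.848 M (median 3.558 M) in total libraries. The members together took 0.223 to 0.347% of the gene counts of ribosomal libraries and 0.340 to 0.433% of those of total libraries. All 12 muscle fibre markers were detected in every group, and their summed level had group medians of 116100 to 191400 CPM in ribosomal and 52210 to 65180 CPM in total RNA. Reads outside annotated genes took 4.82 to 12.5% of ribosomal and 9.54 to 23.4% of total libraries, and 5 total libraries exceeded 19%: female control 14, female labelled knockout 9 and male controls 25, 26 and 27. There were 7 ribosomal libraries under 0.75 M counts, male labelled knockout 2 being the shallowest, and the 8 kidney markers summed to over 250 CPM in 2 libraries, with group medians of 3.55 to 48.4 CPM. Nothing in the labels states separate litters or days. The spread is that between libraries of different mice, in which differences between mice and between library preparations cannot be told apart.

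Because the knockout targets a protein that binds U-rich sites, the last 500 bases of each member's 3' untranslated region were searched for TTTNTTT, a 7-base U-rich pattern read on the RNA strand only, with overlapping matches counted separately. The pattern occurred in 20 of the 27 members whose region was long enough (74.1%), and in 57.0% of 13407 protein-coding genes with such a region. Srsf1, Srsf2 and Srsf11 had no match in this window, and the regions of Hnrnpm, Hnrnpl, Hnrnpa3 and Srsf9 were shorter than it. A match is a description of the sequence and not a shown binding site. The match nearest the 3' end is printed, with 9 bases on either side, for the 8 members with a match that were called between labelled knockouts and controls, or differed between the RNA types in controls by at least as much as Hnrnpd (0.71 on the log2 scale), a limit set after the values were seen. Each sequence comes from the GENCODE M21 transcript of build GRCm38, is written 5' to 3' as DNA, and has the pattern in capitals.
Srsf3: tcttctggtTTTCTTTtagggtagg
Hnrnpul1: ttgttttgtTTTCTTTcaataaatg
Srsf10: cagatcacaTTTCTTTgttggagag
Hnrnpd: gcactaaatTTTATTTtctgaaaga
Srsf5: tgggctggaTTTCTTTgtagatgtg
Hnrnpab: cacagatcgTTTCTTTttcccccca
Hnrnpa1: catttggaaTTTATTTatggttgct
Hnrnpll: ctgggtttgTTTCTTTctcttttaa

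The coordinates are those of the 25 printed bases, and the distances count from the first capital to the transcript's end. The Srsf3 stretch lies at chr17:29043308-29043332 on the plus strand, with its capitals starting 57 bases from the end. That of Hnrnpul1 lies at chr7:25721187-25721211 on the minus strand, 38 bases from the end, and is the last of 3 overlapping windows in this gene. That of Srsf10 lies at chr4:135869848-135869872 on the plus strand, 52 bases from the end, and is the second of 2. The Hnrnpd stretch lies at chr5:99955995-99956019 on the minus strand, 76 bases from the end, and that of Hnrnpll at chr17:80029491-80029515 on the minus strand, 20 bases from the end. Those of Srsf5, at chr12:80950097-80950121 on the plus strand, Hnrnpab, at chr11:51600532-51600556 on the minus strand, and Hnrnpa1, at chr15:103244685-103244709 on the plus strand, start 402, 448 and 262 bases from the end. Hnrnpa1 had 12 matches and Hnrnpll 5. Apart from the printed match, those of Hnrnpa1 all overlap in the same uninterrupted run of T. All 8 lie in 3' untranslated exons.

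The annotated transcript types of these genes were counted as well, without matching for the number of transcripts per gene. At least 1 transcript marked for nonsense-mediated decay was annotated for 19 of the 31 members (61.3%), 9 of the 11 Srsf genes among them, against 20.8% of 21951 protein-coding genes. A transcript with a retained intron was annotated for 22 of the 31 members (71.0%) against 41.5%. The libraries count tags at the 3' end and do not separate such transcripts. The 3' end of Hnrnpa3 was shared, at 95% identity or more over at least 200 bases, with 32 other genes, that of Hnrnpa1 with 8, Hnrnpf with 5 and Hnrnpk with 2, and Hnrnpc, Hnrnph2, Hnrnpl, Hnrnpr and Srsf5 had 1 each, so that counts of these genes are uncertain.

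Of the 31 members, 28 passed the filter on low counts in ribosomal RNA and 30 in total RNA and in the fit of both RNA types. Srsf12, an SR protein gene, had 2 counts in all 56 libraries and was never tested. Hnrnpf and Hnrnph2, close relatives that bind G-rich sequence, were not tested in ribosomal RNA, where they had 107 and 143 counts over the 28 libraries. A member is called where its Benjamini-Hochberg adjusted p from edgeR's quasi-likelihood test, adjusted over all genes tested, was under 0.05. Log2 differences are given with their standard error (SE).

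The comparison of ribosomal with total RNA asks how far the share of an mRNA on the tagged ribosomes departs from its share in the whole muscle. In controls 20 of the 30 tested members were called, 7 higher and 13 lower in ribosomal RNA, where 78.2% of all 12546 genes tested were called, 35.2% higher and 43.1% lower. The members' share of 20 in 30 was therefore not above the background. All 10 tested Srsf genes were called, 3 higher and 7 lower, and of the 20 Hnrnp genes 4 were higher and 6 lower. The members' median log2 difference was −0.15, beside −0.10 over all genes tested. With size factors of the RLE kind in place of TMM, the median of all genes moved by −0.23, all genes split into 3376 higher and 6537 lower in place of 4410 and 5403, and the members into 5 higher and 20 lower.

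Total RNA comes from all cells of the muscle and ribosomal RNA from cells with the tag, and these data cannot tell fewer cells of a type from less RNA per cell. In female controls the 8 endothelial markers summed to 53.2 to 111.5 CPM in ribosomal and 376.5 to 461.1 CPM in total RNA, and in male controls to 49.4 to 106.0 and 398.0 to 459.8 CPM. The 5 nuclear long non-coding RNAs summed to 231.9 to 933.3 CPM in ribosomal and 2846 to 4805 CPM in total RNA of female controls. No marker of these lists was at 0 in all libraries of a group. Their part in the members' differences was not tested.

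**Figure D1:**
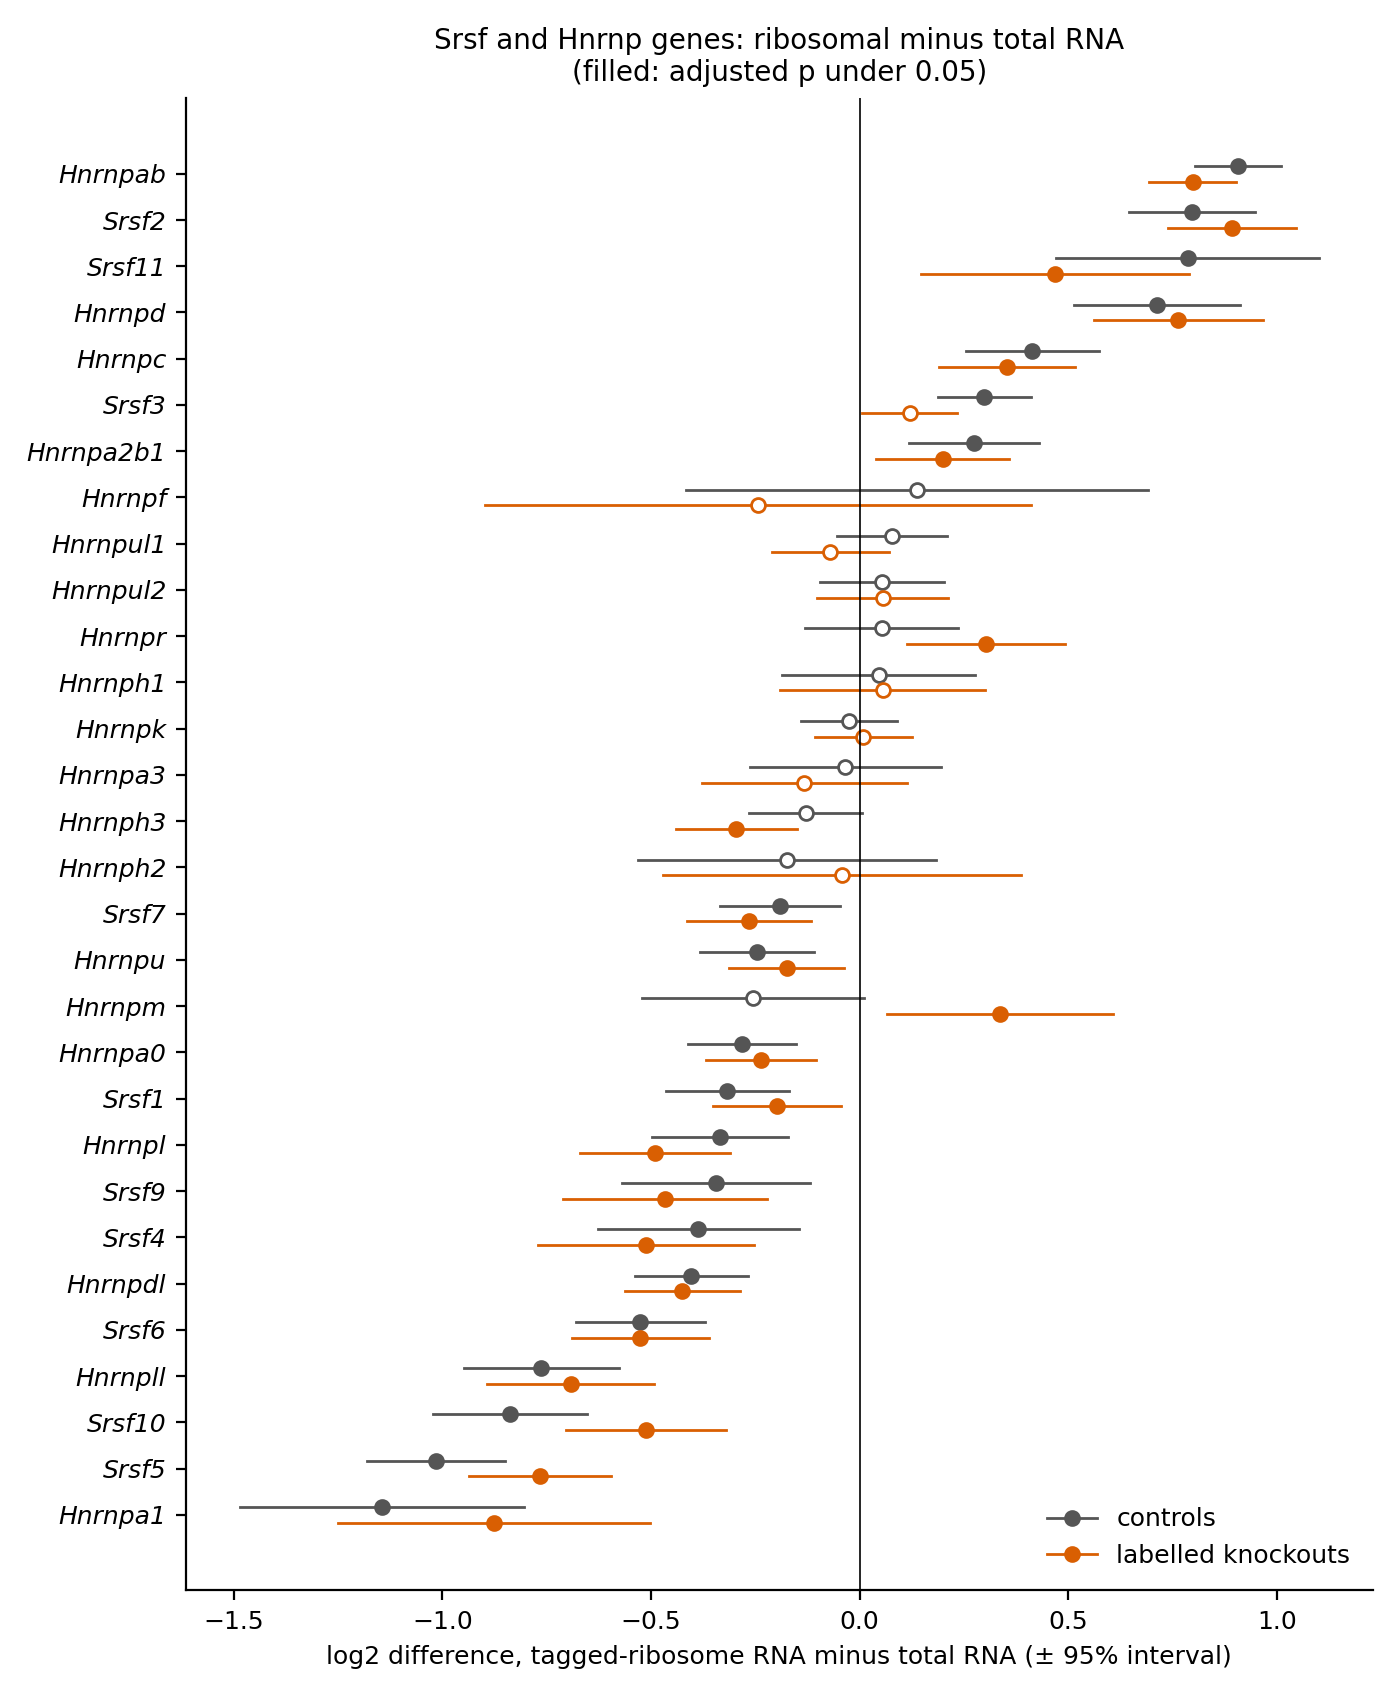
Log2 difference between ribosomal and total RNA (x axis, with 95% intervals) for the 30 tested members (y axis, ordered by the difference in controls), in controls (grey) and labelled knockouts (orange), as the mean of both sexes. Filled points passed the test. In controls the values run from −1.15 for Hnrnpa1 to 0.91 for Hnrnpab.

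The members higher in ribosomal RNA were led by Hnrnpab, which encodes an hnRNP related to AUF1 that binds AU-rich and transport elements. Its level in female controls ran from 371.0 to 419.4 CPM (median 393.3) in ribosomal and from 197.3 to 240.1 CPM (median 215.0) in total RNA. In male controls it ran from 352.1 to 419.1 CPM (median 405.5) against 187.9 to 216.1 CPM (median 201.3). In each sex every ribosomal library lay above every total library. The log2 difference was 0.91 (SE 0.052), 1.88-fold, with an edgeR adjusted p of 1.98e-23.

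Srsf2, a classical SR protein that activates exons and couples transcription to splicing, was the next. In female controls it ran from 295.5 to 436.1 CPM (median 351.9) in ribosomal and from 150.0 to 202.4 CPM (median 172.9) in total RNA. In male controls it ran from 229.4 to 465.4 CPM (median 273.0) and from 166.0 to 232.6 CPM (median 186.0). The groups were apart in females and overlapped in males. The difference was 0.80 (SE 0.077), with an edgeR adjusted p of 3.64e-14. Its gene overlaps Mettl23 and Mfsd11 on the other strand.

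Hnrnpd, which encodes AUF1, a factor that promotes decay of AU-rich mRNAs, had 69.8 to 139.6 CPM (median 88.3) in ribosomal and 47.8 to 55.3 CPM (median 53.5) in total RNA of female controls. In male controls it had 57.2 to 159.0 CPM (median 72.2) and 43.6 to 58.8 CPM (median 53.0). Female libraries of the RNA types did not overlap, male ones did. The log2 difference was 0.71 (SE 0.101; edgeR adjusted p = 5.54e-09).

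Srsf11, an SR-related protein of the splice site recognition machinery, had a log2 difference of 0.79 (SE 0.161; edgeR adjusted p = 1.44e-05) that 3 libraries stood out in. Its ribosomal levels were 594.4 and 643.0 CPM in female controls 18 and 19 and 490.8 CPM in male control 20, while the other 11 control libraries ran from 120.4 to 250.2 CPM. Total RNA of controls ran from 113.6 to 170.0 CPM. The same 3 libraries had the highest shares of reads outside genes among ribosomal controls, 9.31, 9.999 and 9.45%. They are also the 3 ribosomal control libraries under 0.75 M counts. Without all ribosomal libraries under that depth the difference was 0.31 (edgeR adjusted p = 0.000804).

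Hnrnpc, which binds U tracts in introns, differed by 0.41 (SE 0.081). The remaining higher members were Srsf3, the smallest SR protein and an export adaptor, with 0.30 (SE 0.057), and Hnrnpa2b1, a protein of mRNA transport, with 0.27 (SE 0.079). The calls of Srsf3 and Hnrnpa2b1 depended on the scaling: with RLE factors their differences were 0.08 and 0.05, with edgeR adjusted p of 0.214 and 0.539.

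Hnrnpa1, an abundant splicing repressor that shuttles between nucleus and cytoplasm, had the lowest log2 difference, −1.15 (SE 0.174; edgeR adjusted p = 3.13e-08), with counts made uncertain by its copies. It had 7.48 to 38.9 CPM (median 16.9) in ribosomal and 21.3 to 45.0 CPM (median 30.0) in total RNA of female controls, which overlapped. In male controls 9.22 to 18.4 CPM (median 11.4) stood below 19.02 to 34.6 CPM (median 26.7) with no overlap.

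Srsf5, an SR protein first described as an early response gene of growing liver, had 69.4 to 133.7 CPM (median 95.4) in ribosomal and 143.0 to 213.7 CPM (median 174.1) in total RNA of female controls. In male controls it had 50.4 to 80.4 CPM (median 59.9) and 122.7 to 161.1 CPM (median 148.6). In both sexes all ribosomal libraries lay below all total libraries, and the log2 difference was −1.01 (SE 0.084; edgeR adjusted p = 1.05e-16).

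Srsf10, an SR protein that acts as a splicing repressor when dephosphorylated, showed the same order. Ribosomal levels were 12.7 to 39.3 CPM (median 25.4) in female and 32.2 to 39.2 CPM (median 35.5) in male controls. Total levels were 47.1 to 62.6 CPM (median 55.7) and 53.1 to 59.3 CPM (median 56.2). No control library of one RNA type reached those of the other, and the difference was −0.84 (SE 0.094; edgeR adjusted p = 6.01e-12).

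Hnrnpll, a regulator of alternative splicing in lymphocytes, ran from 23.1 to 35.5 CPM (median 27.8) in ribosomal and from 41.7 to 55.7 CPM (median 44.4) in total RNA of female controls. In male controls it ran from 11.5 to 33.2 CPM (median 27.2) and from 44.7 to 56.8 CPM (median 51.7). The RNA types did not overlap in either sex, and the difference was −0.76 (SE 0.095; edgeR adjusted p = 1.33e-10). Its relative Hnrnpl, which binds CA repeats, differed by −0.33 (SE 0.083).

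Srsf6, an SR protein that regulates alternative exons, and Hnrnpdl, a relative of AUF1 in which variants are known in limb girdle muscular dystrophy, were lower as well. Srsf6 ran from 33.3 to 79.9 CPM (median 62.6) in ribosomal and from 73.9 to 102.5 CPM (median 84.0) in total RNA of female controls, with overlap. In male controls 27.7 to 61.6 CPM (median 50.9) lay below 71.3 to 87.0 CPM (median 76.2). Its difference was −0.53 (SE 0.079; edgeR adjusted p = 2.58e-08).

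For Hnrnpdl, 156.5 to 251.3 CPM (median 199.8) lay below 266.9 to 332.4 CPM (median 295.1) in female controls. In male controls 191.2 to 289.3 CPM (median 248.6) overlapped with 279.6 to 304.2 CPM (median 296.2). Its difference was −0.40 (SE 0.069; edgeR adjusted p = 4.87e-07). The other lower members were Srsf4, Srsf9, Srsf1, Srsf7, Hnrnpa0 and Hnrnpu, with log2 differences between −0.39 and −0.19. Srsf1 is the prototype SR protein, Srsf7 a zinc knuckle SR protein that also acts in export, and Hnrnpu a nuclear scaffold protein.

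**Figure D2:**
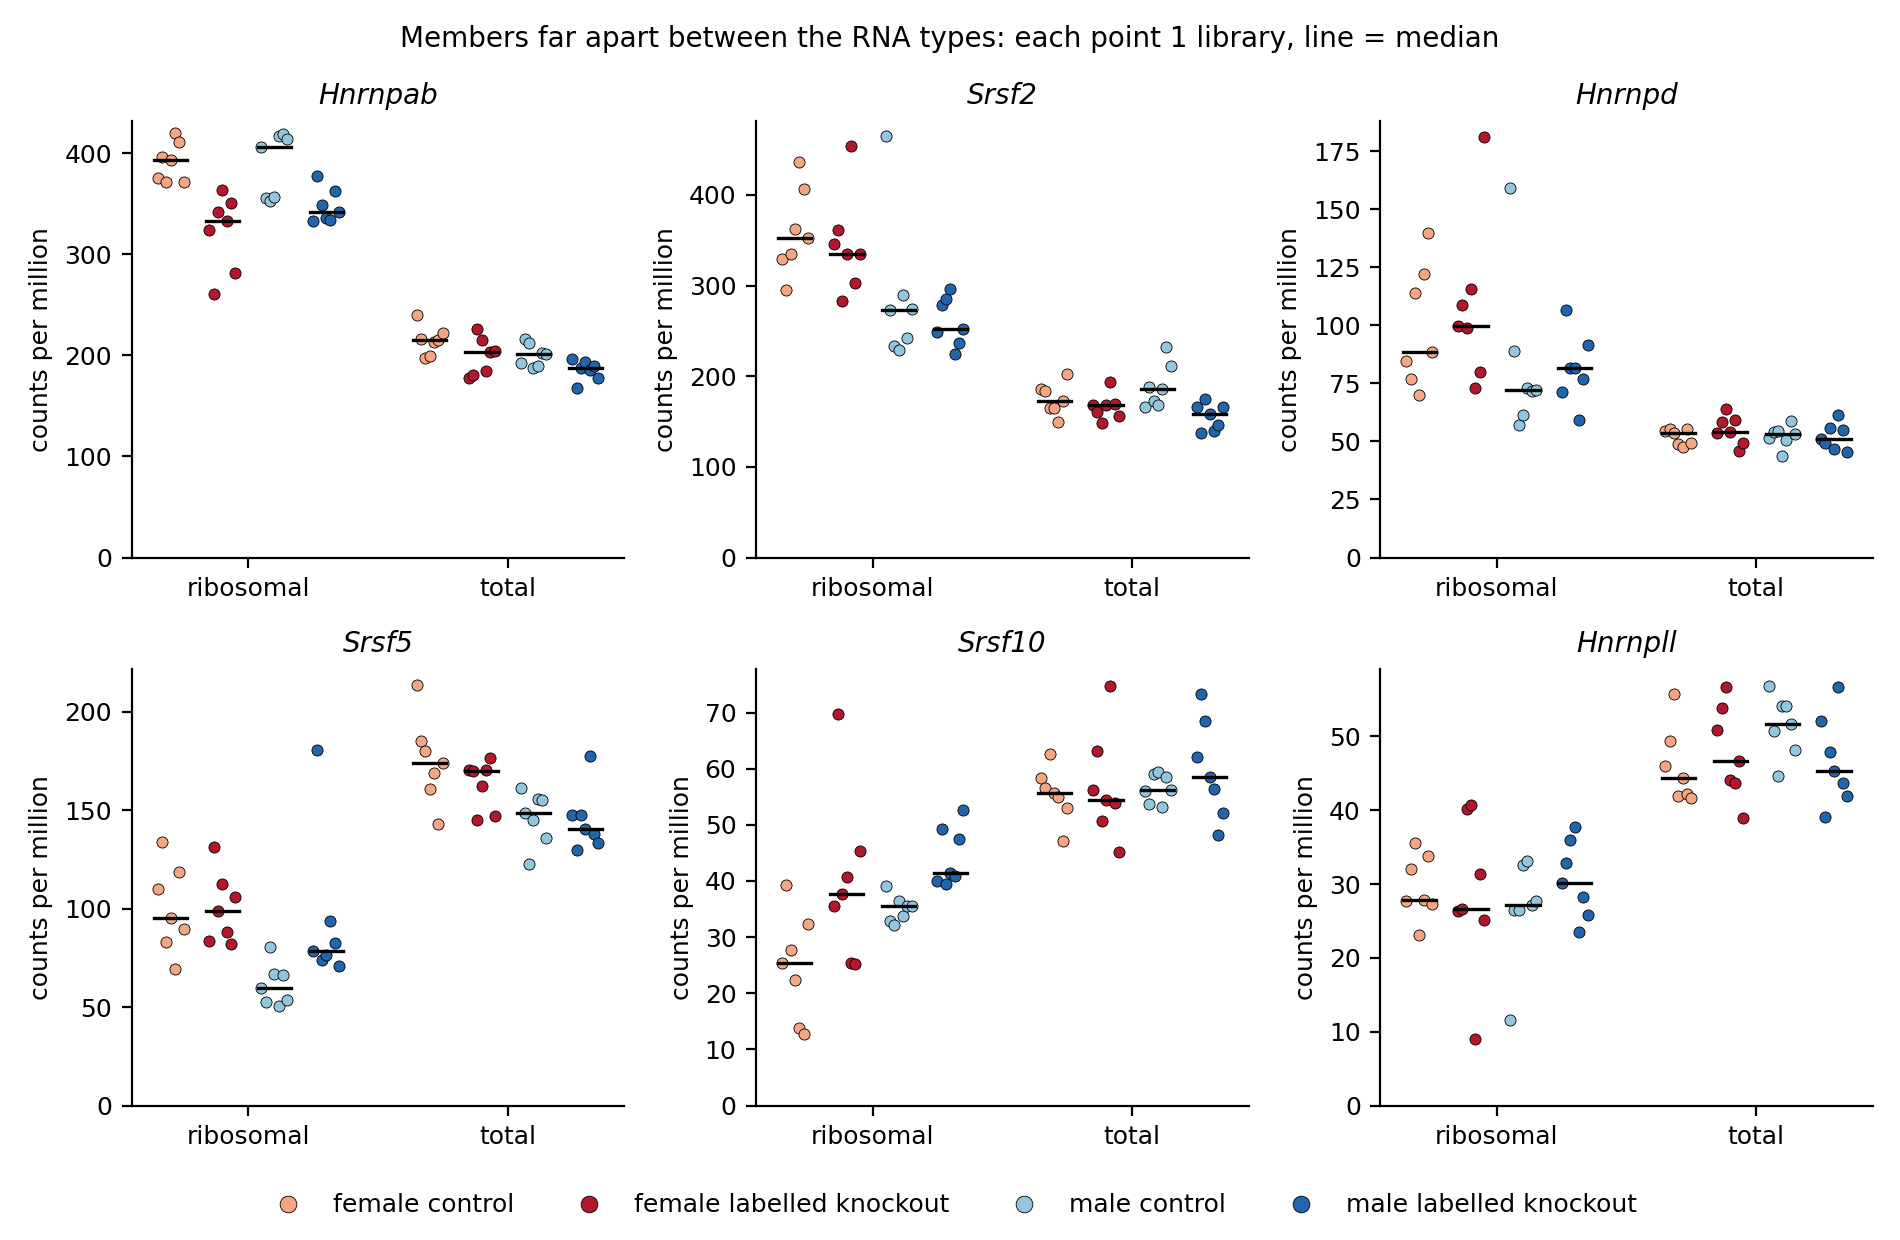
CPM (y axis, from 0) of 6 members in each of the 56 libraries, by RNA type and group (x axis, coloured by sex and genotype); lines mark group medians. Hnrnpab, Srsf2 and Hnrnpd are higher in ribosomal RNA, Srsf5, Srsf10 and Hnrnpll in total RNA, and the Srsf5 level of 180.4 CPM in 1 male labelled knockout stands above the others of its group.

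In labelled knockouts 22 of 30 members were called between the RNA types, 8 higher and 14 lower, where 75.9% of all genes tested were called, 31.9% higher and 44.0% lower. Hnrnpab (0.80, SE 0.053), Srsf2 (0.89, SE 0.078) and Hnrnpd (0.76, SE 0.103) were again higher, and Srsf5 (−0.77, SE 0.087), Hnrnpa1 (−0.88, SE 0.191), Hnrnpll (−0.69, SE 0.102) and Srsf6 (−0.53, SE 0.084) lower. Hnrnpm (0.34, SE 0.138), Hnrnpr (0.30, SE 0.097) and Hnrnph3 (−0.30, SE 0.074) were called in labelled knockouts and not in controls. In controls Hnrnpm (edgeR adjusted p = 0.0797) and Hnrnph3 (0.082) narrowly missed the threshold. Several alternatives called both lower in controls, so Hnrnpm there went the other way. With RLE factors the control values were −0.46 (edgeR adjusted p = 0.00362) for Hnrnpm and −0.36 (1.15e-05) for Hnrnph3. Srsf3 was called in controls and not in labelled knockouts, where it stood at 0.12 (SE 0.058). The Hnrnpm call in labelled knockouts was lost (edgeR adjusted p up to 0.0822) without any 1 of female labelled knockouts 5, 6 or 12 or male labelled knockout 12, and without the ribosomal libraries under 0.75 M counts it stood at 0.15 (0.245). Hnrnpm, Srsf11, Hnrnpc, Hnrnpr and Hnrnpa2b1 were not called there with RLE factors. Whether such differences changed with the genotype is the question of the interaction below. With RLE factors the split was 3 higher and 17 lower among the members, and 3190 higher and 6503 lower in place of 4006 and 5520 among all genes.

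The interaction compares the knockout effect in ribosomal RNA with that in total RNA. No member passed it in females, where 3.46% of genes were called, or in males, where 0.128% were called. At an unadjusted p under 0.05 edgeR gave 4 members in females and 1 in males. Hnrnpm, a splicing regulator that binds GU-rich sequence, had the highest value in females, 0.81 (95% interval 0.27 to 1.35; edgeR adjusted p = 0.084). Limma-voom called 1 member in females and DESeq2 none in either sex.

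The comparison of labelled knockouts with controls in total RNA asks which mRNAs changed in the muscle as a whole. In females 1 of 30 members was called, where 8.49% of 12860 genes were and 3.79% were called higher. This was Srsf3, higher in labelled knockouts, with 102.5 to 123.8 CPM (median 106.7) in controls and 126.0 to 152.6 CPM (median 136.2) in labelled knockouts. On the scale of all 56 libraries the groups did not overlap, and on that of the 28 total libraries they did. The log2 difference was 0.33 (SE 0.066), 1.25-fold, with an edgeR adjusted p of 0.00164, and it ran from 0.31 to 0.37 when each of the 14 libraries was left out in turn. In males Srsf3 had 108.5 to 133.6 CPM (median 121.8) and 113.3 to 140.8 CPM (median 127.1), a difference of 0.06. The test of the difference between the sexes gave −0.27 (SE 0.093; edgeR adjusted p = 0.343).

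In males 5 of 30 members were called, all lower in labelled knockouts, where 14.2% of genes were called and 7.36% were lower. The members' median was −0.10, beside 0.00 over all genes. Hnrnpm fell most: controls ran from 193.9 to 415.5 CPM (median 257.7) and labelled knockouts from 135.9 to 178.1 CPM (median 153.5). Every labelled knockout was below every control. The log2 difference was −0.75 (SE 0.149; edgeR adjusted p = 0.0019). In females Hnrnpm ran from 198.0 to 291.4 CPM (median 244.9) in controls and from 140.7 to 287.3 CPM (median 161.0) in labelled knockouts, and 5 of 7 labelled knockouts lay below all controls. The female difference of −0.38 (SE 0.148) had an edgeR adjusted p of 0.103. Without the total libraries above 19% of reads outside genes it was called, at −0.48 (edgeR adjusted p = 0.00168). Limma-voom called it too, at −0.43 (limma-voom adjusted p = 0.0129). RLE factors, DESeq2, no filter and the 14 libraries alone called no member lower in females. The gene overlaps March2 on the same strand.

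Srsf11 ran from 113.6 to 170.0 CPM (median 138.7) in male controls and from 95.3 to 121.3 CPM (median 108.4) in labelled knockouts, 6 of which lay below all controls. Its difference was −0.36 (SE 0.093; edgeR adjusted p = 0.011). Srsf1 ran from 117.5 to 137.2 CPM (median 124.7) in controls and from 86.3 to 117.3 CPM (median 103.3) in labelled knockouts, all 7 below the controls. Its difference was −0.28 (SE 0.082; edgeR adjusted p = 0.0212).

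Srsf2 ran from 166.0 to 232.6 CPM (median 186.0) in male controls and from 137.7 to 175.4 CPM (median 157.9) in labelled knockouts. The groups overlapped, with a difference of −0.29 (SE 0.086; edgeR adjusted p = 0.0215). Hnrnpul1, a relative of the scaffold protein of Hnrnpu with a role in transcription and DNA repair, ran from 72.4 to 98.6 CPM (median 82.7) in controls and from 64.3 to 84.2 CPM (median 74.2) in labelled knockouts. These groups overlapped too, with a difference of −0.24 (SE 0.079; edgeR adjusted p = 0.0402).

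The share of reads outside genes moved with this comparison. Male controls had 12.4 to 23.4% (median 14.7%) of such reads in total libraries and male labelled knockouts 9.78 to 13.9% (median 11.1%). Male controls 25, 26 and 27, the 3 above 19%, had the highest Hnrnpm levels of their group, 269.1, 415.5 and 281.2 CPM. In females the highest Hnrnpm levels of each group were those of control 14 (291.4 CPM, 19.3% of reads outside genes) and labelled knockout 9 (287.3 CPM, 21.6%). Without the 5 total libraries above 19%, 2 members were called in males: Hnrnpm at −0.49 (edgeR adjusted p = 0.00441) and Srsf1 at −0.30 (0.0354). Leaving out 1 library at a time, the Srsf1 call was lost without male control 23 or male labelled knockout 12 or 13 (edgeR adjusted p up to 0.0568), the Srsf2 call without male control 26 or 27 (up to 0.0616), and the Hnrnpul1 call without male controls 25, 26 or 27 or male labelled knockouts 2, 6, 12, 13 or 14 (up to 0.107). In the fit without the 5 libraries, Srsf11 (−0.23), Srsf2 (−0.18) and Hnrnpul1 (−0.13) had edgeR adjusted p of 0.0834, 0.218 and 0.433, and all genes called fell from 1824 to 645.

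Markers of other cells moved with genotype in total RNA as well. The 8 fibroblast and matrix markers summed to 1819 to 2992 CPM in male controls and 2977 to 4323 CPM in male labelled knockouts, and to 1419 to 2660 and 2304 to 3811 CPM in females. All 8 were called higher in males and 6 of 8 in females. The erythroid markers summed to 596.8 to 877.1 and 1266 to 2187 CPM in males and to 564.1 to 895.9 and 660.4 to 1852 CPM in females, and the 5 nuclear long non-coding RNAs to 2636 to 5472 and 2043 to 3258 CPM in males. No marker of these lists was at 0 in a whole group, and their part in the members' differences was not tested.

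**Figure D3:**
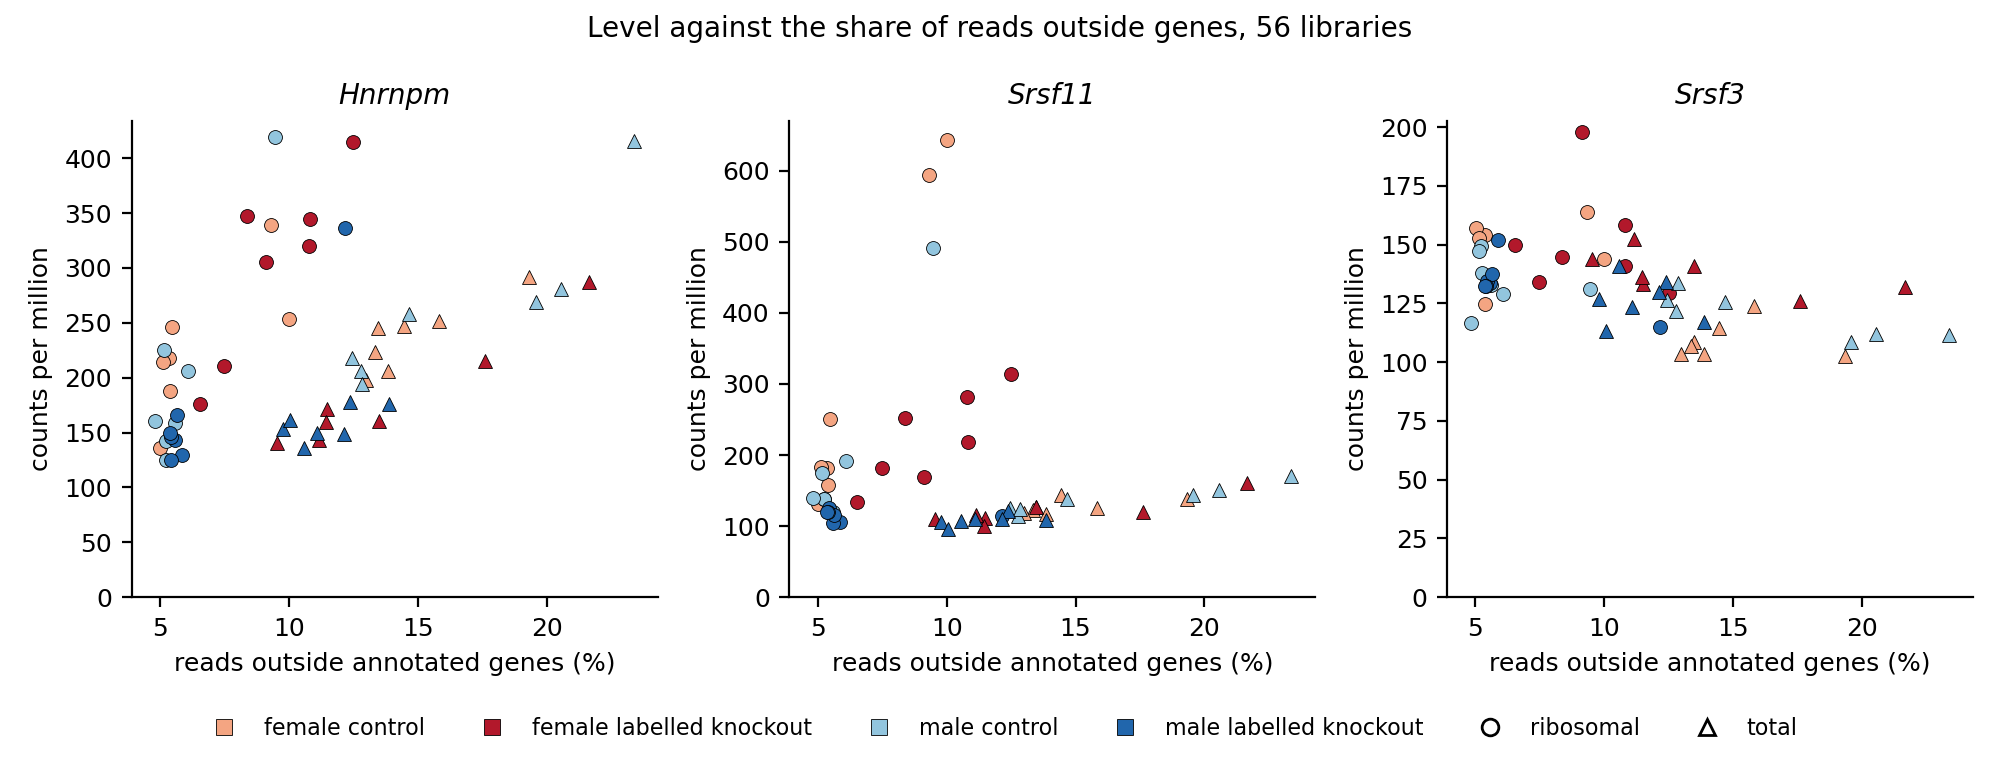
CPM (y axis, from 0) of Hnrnpm, Srsf11 and Srsf3 against the share of reads outside annotated genes (x axis, percent) in 56 libraries; circles are ribosomal, triangles total libraries, coloured by sex and genotype. The highest Hnrnpm levels, 419.4 CPM in ribosomal and 415.5 CPM in total RNA, are from libraries with shares of 9.45 and 23.4%, and the highest Srsf3 level, 198.0 CPM, is at 9.11%.

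In ribosomal RNA 1 of 28 members was called in females, where 16.8% of 9098 genes were and 8.41% were called lower. Hnrnpul1 ran from 71.9 to 108.0 CPM (median 89.0) in controls and from 51.3 to 77.9 CPM (median 64.2) in labelled knockouts, 5 of which lay below all controls. The difference was −0.40 (SE 0.123; edgeR adjusted p = 0.022). Without female control 21 the adjusted p was 0.0567, and without the ribosomal libraries under 0.75 M counts it was 0.0834.

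Other transcripts moved with genotype in the same female libraries. The 13 mitochondrially encoded mRNAs summed to 1635 to 7179 CPM (median 2843) in controls and 6006 to 27660 CPM (median 13870) in labelled knockouts, with 4 and 6 of them at 0, Atp6, Atp8, Nd3 and Nd4l in each group and Co2 and Co3 in labelled knockouts. The 5 nuclear long non-coding RNAs summed to 231.9 to 933.3 and 812.3 to 6176 CPM, and the 8 fibroblast and matrix markers to 231.7 to 385.0 and 450.2 to 1327 CPM, with no marker at 0. When the summed level of these 13 mRNAs entered the model, the Hnrnpul1 difference was −0.14 with an edgeR adjusted p of 0.724, and Srsf11 was called lower in its place (−1.15; 0.0459). Without the ribosomal libraries under 0.75 M counts, Hnrnpa2b1 was called lower (−0.44; 0.0476). The part of the other lists was not tested.

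Members next in order in females were Srsf10 (0.52, SE 0.197; edgeR adjusted p = 0.065), Hnrnpr (0.46, SE 0.182; 0.0756) and Hnrnpab (−0.22, SE 0.093; 0.103), and all 3 missed the threshold. In males 0 of 28 members were called, where 8.96% of genes were. At an unadjusted p under 0.05 edgeR gave 5 members, limma-voom called 4 and DESeq2 0. Srsf5 (0.45, SE 0.159; edgeR adjusted p = 0.0723) and Srsf11 (−0.71, SE 0.316; 0.165) had the highest and lowest differences. Srsf11 ran from 120.4 to 490.8 CPM (median 139.0) in male controls and from 104.5 to 126.0 CPM (median 115.3) in labelled knockouts. The 1 control far above the others was male control 20, with 0.705 M counts. With no filter on low counts the male Srsf11 difference was called (−0.71; edgeR adjusted p = 0.000136).

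**Figure D4:**
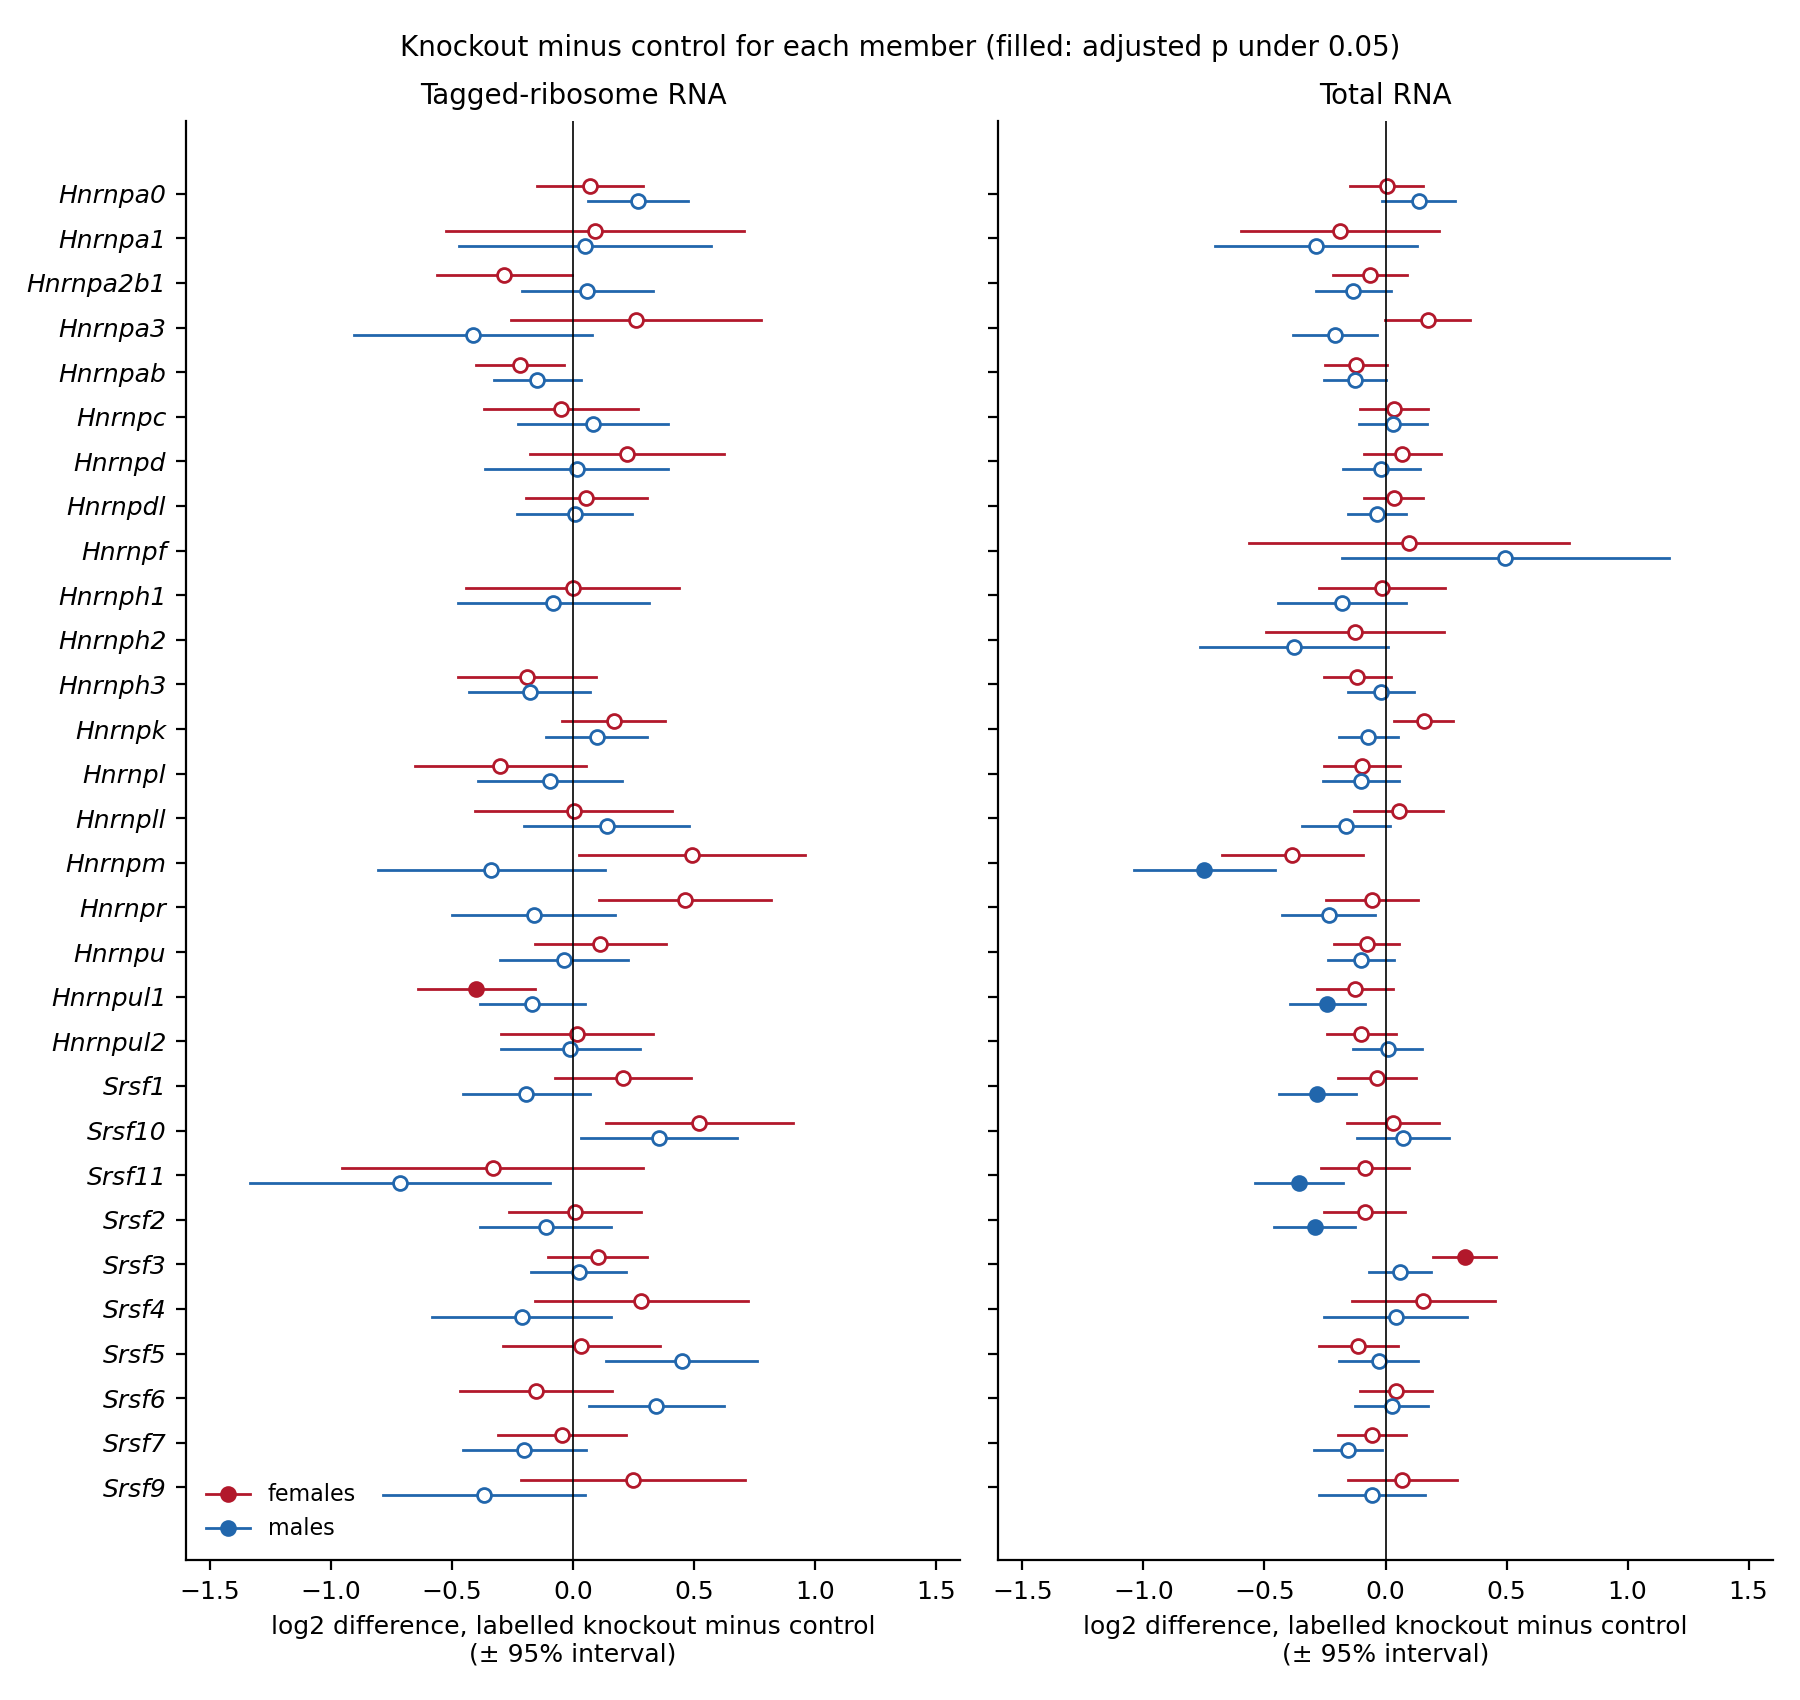
Log2 difference between labelled knockouts and controls (x axis, with 95% intervals) for each tested member (y axis) in ribosomal RNA (left) and total RNA (right), females in red and males in blue. Filled points passed the test: Hnrnpul1 in ribosomal RNA of females, Srsf3 in total RNA of females, and Hnrnpm, Hnrnpul1, Srsf1, Srsf11 and Srsf2 in total RNA of males.

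No member passed the test of a difference between the sexes in the knockout effect, in ribosomal RNA (3.43% of genes called) or in total RNA (0% of genes, 0 of 12860). At an unadjusted p under 0.05 edgeR gave 4 members in ribosomal and 5 in total RNA, and the other tools called no member. In ribosomal RNA Hnrnpm had the largest difference, −0.83 (95% interval −1.49 to −0.17; edgeR adjusted p = 0.152). Its female effect was 0.49 (SE 0.238) and its male effect −0.34 (SE 0.239), and neither passed the test.

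Averaging the effects of both sexes, a contrast added after the data were seen and built from the same libraries, called 3 of 28 members in ribosomal RNA, where 20.2% of genes were called, 9.8% higher and 10.4% lower. Srsf10 was higher, 0.44 (SE 0.128; edgeR adjusted p = 0.0132), and Hnrnpul1 (−0.28, SE 0.083; 0.013) and Hnrnpab (−0.18, SE 0.065; 0.0429) were lower. Ribosomal Srsf10 ran from 12.7 to 39.3 CPM in female controls and from 25.3 to 69.8 CPM (median 37.6) in female labelled knockouts. In males it ran from 32.2 to 39.2 CPM in controls and from 39.4 to 52.6 CPM (median 41.4) in labelled knockouts. Without ribosomal libraries under 0.75 M counts its mean effect was 0.23 with an edgeR adjusted p of 0.146. With the mitochondrial covariate the ribosomal calls of Srsf10 and Hnrnpul1 (−0.16; 0.281) were lost. Srsf11 (−0.87; 0.00427) and Hnrnph3 (−0.33; 0.0422) were newly called lower in that fit, and Hnrnpa0 (0.27; 0.0384) was the only member called higher. The Hnrnpab call was lost in 16 of 28 fits that each left out 1 library (up to 0.0696).

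Ribosomal Hnrnpab ran from 260.6 to 363.0 CPM (median 332.8) in female labelled knockouts and from 332.6 to 377.2 CPM (median 341.5) in male ones, against group medians of 393.3 and 405.5 CPM in controls. In total RNA the mean of both sexes called 7 of 30 members, where 24.8% of genes were called, 12.6% higher and 12.2% lower. Srsf3 was higher (0.19, SE 0.047). Hnrnpm (−0.57, SE 0.105), Srsf11 (−0.22, SE 0.066), Hnrnpul1 (−0.18, SE 0.056), Srsf2 (−0.19, SE 0.061), Srsf1 (−0.16, SE 0.058) and Hnrnpab (−0.12, SE 0.046) were lower. Leaving out 1 library at a time, the total RNA calls of Hnrnpab and Srsf1 were lost in 23 and 20 of 28 fits (edgeR adjusted p up to 0.102 and 0.0928). Without the total libraries above 19% of reads outside genes, 1 member was called higher and 4 lower. Srsf7 was newly called lower in that fit (−0.17; edgeR adjusted p = 0.0261).

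**Figure D5:**
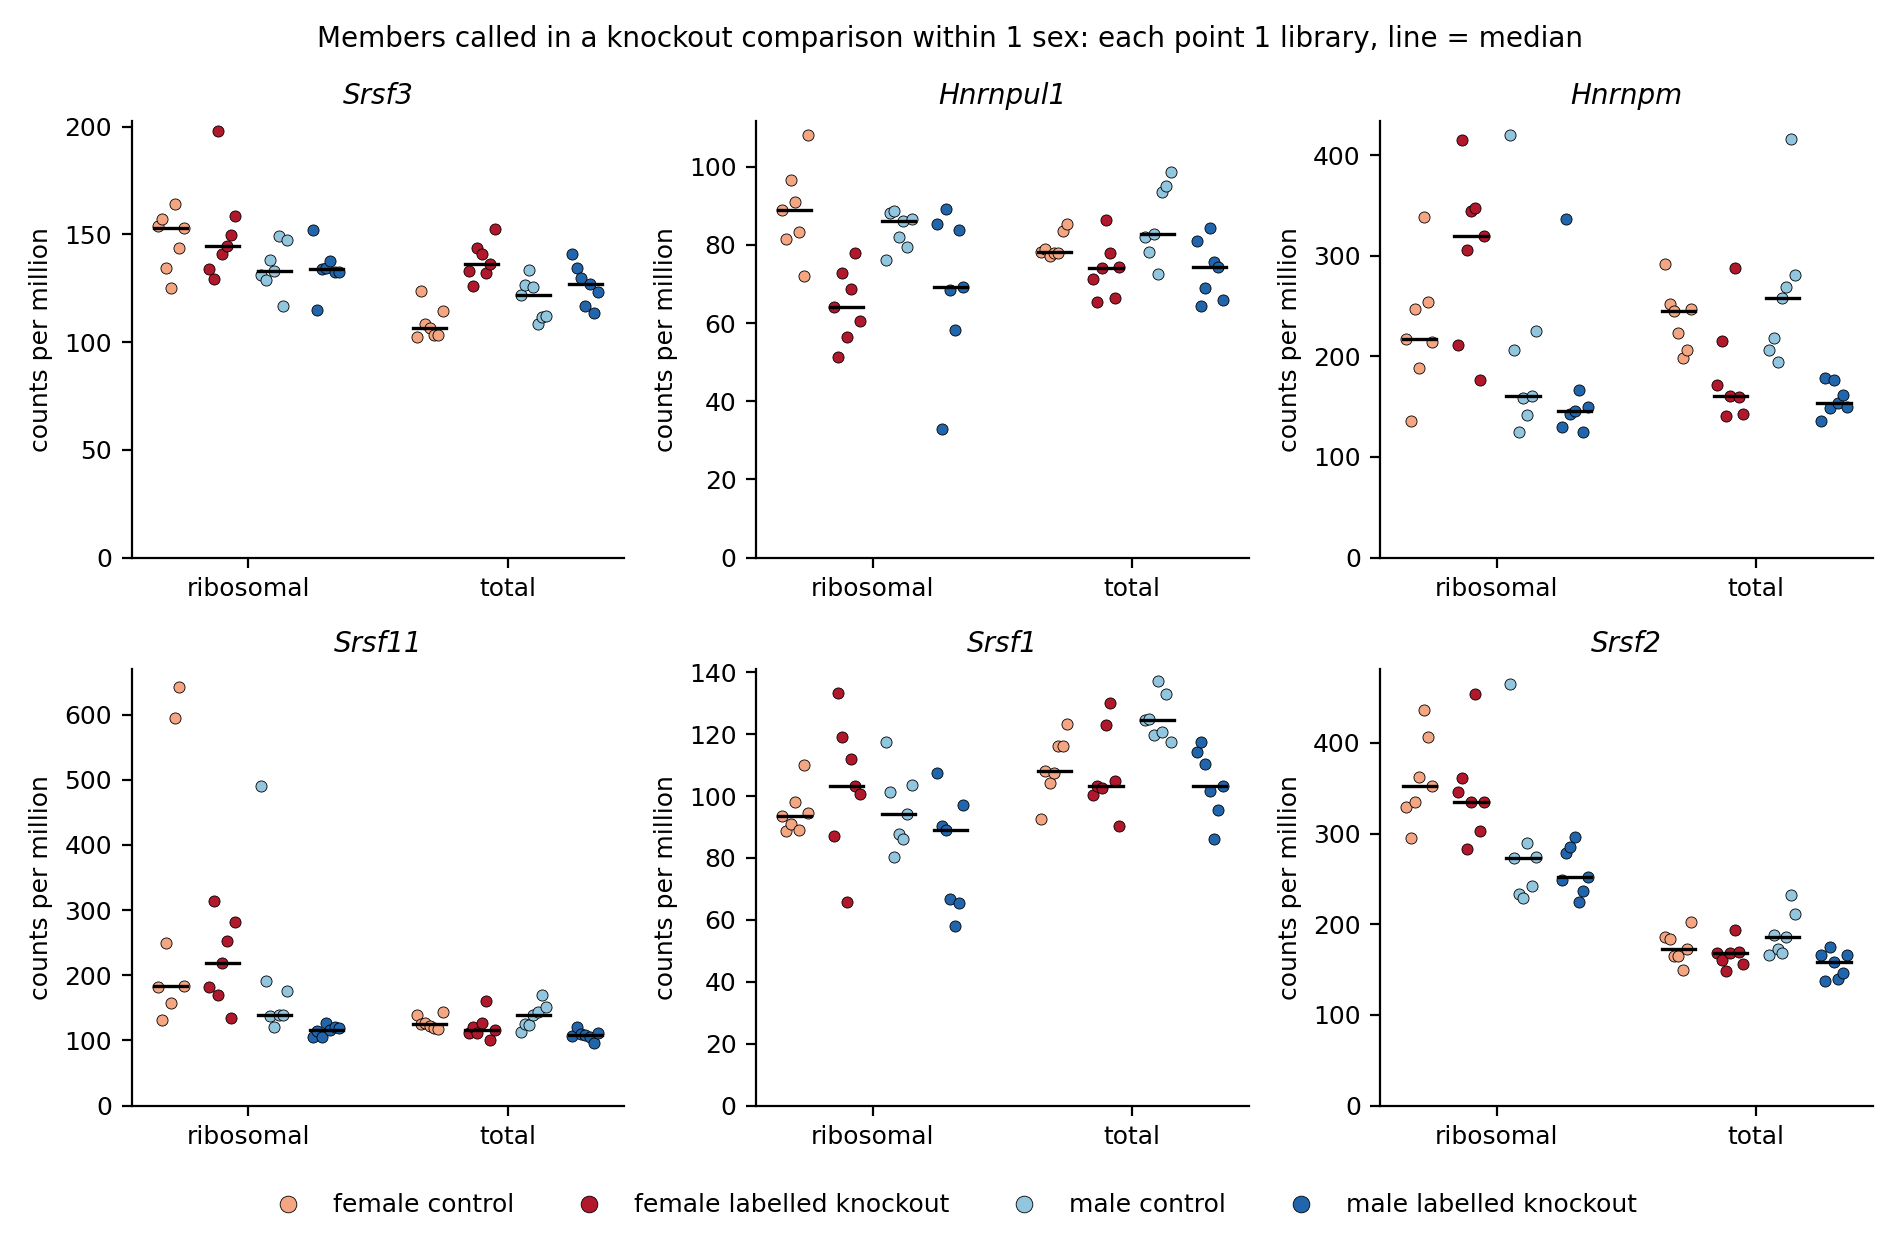
CPM (y axis, from 0) of the 6 members called in a comparison of labelled knockouts with controls within 1 sex, in each of the 56 libraries, by RNA type and group (x axis, coloured by sex and genotype); lines mark group medians. Total Hnrnpm of male labelled knockouts, 135.9 to 178.1 CPM, lies below that of male controls, and ribosomal Srsf11 reaches 643.0 CPM in 1 female control.

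Between control males and control females, 2 of 28 members were called in ribosomal RNA, where 7.63% of genes were called and 3.37% were lower in males. Both members were lower in males. Srsf5 had 69.4 to 133.7 CPM in females and 50.4 to 80.4 CPM in males, 6 of 7 males lying below all females. The difference was −0.71 (SE 0.159; edgeR adjusted p = 0.00292). Hnrnpc had 119.1 to 228.5 CPM (median 164.8) in females and 85.8 to 159.0 CPM (median 109.5) in males, again with 6 males below all females. Its difference was −0.55 (SE 0.158; edgeR adjusted p = 0.0253), and in a fit of the 14 libraries alone its edgeR adjusted p was 0.0698. The Hnrnpc call was also lost without any 1 of female controls 16, 18 or 19 or male controls 22, 23 or 25 (edgeR adjusted p up to 0.0662).

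In total RNA 1 of 30 members was called between control males and females, where 8.7% of genes were called and 3.95% were lower in males. This was again Srsf5, lower in males, with 143.0 to 213.7 CPM in females and 122.7 to 161.1 CPM in males. The difference was −0.27 (SE 0.083; edgeR adjusted p = 0.0364), and without the libraries above 19% of reads outside genes the adjusted p was 0.144. The call was lost without any 1 of female controls 14, 15, 16 or 21 or male controls 21, 22, 23 or 27 (edgeR adjusted p up to 0.105). Elavl1 was also lower in ribosomal RNA of male than of female controls (−0.63, SE 0.145; edgeR adjusted p = 0.00438).

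The proteins that phosphorylate, carry and assemble with SR and hnRNP proteins were counted from 6 lists. Their counts stand against the shares of all genes called between labelled knockouts and controls, 16.8% in females and 8.96% in males in ribosomal RNA, and 8.49% and 14.2% in total RNA. Of 14 tested SR protein kinases and phosphatases, 3 were higher and 2 lower in ribosomal RNA of female labelled knockouts, and 1 was higher and 1 lower in males. Ppp1cb, a catalytic subunit of protein phosphatase 1, was lower in females (−0.71, SE 0.129; edgeR adjusted p = 0.000202), and its effect differed between the sexes by 0.70 (0.0244). Srpk1, a cytoplasmic SR protein kinase, was higher in both sexes, by 0.72 (SE 0.140; edgeR adjusted p = 0.000497) in females and 0.42 (SE 0.126; 0.03) in males. In total RNA 1 was higher and 2 were lower in females, and 1 was higher and 4 were lower in males, of 15 tested. Clk1 and Clk4, nuclear SR protein kinases, were lower in both sexes, Clk1 with −0.38 (SE 0.091) and −0.49 (SE 0.091), Clk4 with −0.35 (SE 0.105) and −0.39 (SE 0.105). Dyrk1b, a related kinase, was higher, by 0.54 (SE 0.153) and 0.51 (SE 0.156).

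Of 8 nuclear import and export factors, 1 was higher and 2 were lower in ribosomal RNA of females (all genes 16.8% called), and 2 were lower in males (8.96%). Tnpo2, a transportin that imports hnRNP proteins, was lower, with −1.19 (SE 0.240; edgeR adjusted p = 0.000726) in females and −1.96 (SE 0.228; 1.79e-07) in males. In total RNA Tnpo2 was lower, with −0.63 (SE 0.158) and −0.86 (SE 0.158). Alyref, an adaptor of mRNA export, was lower in ribosomal RNA, with −0.69 (SE 0.194) and −0.86 (SE 0.165).

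Of 24 tested SR-related splicing proteins, 2 were higher and 1 lower in ribosomal RNA of females, and 1 was higher and 1 lower in males. Ddx23, an RNA helicase of the U5 particle with a tail like that of SR proteins, was lower, with −1.30 (SE 0.264) and −1.65 (SE 0.233). Srek1, a splicing regulator, was higher by 0.90 (SE 0.217) and 0.87 (SE 0.205). In total RNA 0 were higher and 3 lower in females, where 8.49% of all genes were called, and 0 higher and 5 lower in males, where 14.2% were called and 7.36% were lower. The list's median was −0.13 in females and −0.25 in males, beside 0.01 and 0.00 over all genes. Srrm2, a scaffold of nuclear speckles, was lower, with −0.58 (SE 0.098) and −0.36 (SE 0.098), and Ddx23 with −0.72 (SE 0.144) and −0.76 (SE 0.145). The share of reads outside genes differed between these male groups as given above, and its part in the list was not tested.

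Of other hnRNP-type RNA-binding proteins, 2 of 29 were higher and 0 lower in ribosomal RNA of females, a smaller share than the 16.8% of all genes, and 1 was higher and 1 lower in males (8.96%). Ybx1, a cold shock domain protein that packages mRNA, was higher in females (0.78, SE 0.191), with a difference between the sexes of −1.11 (edgeR adjusted p = 0.0173), and Pspc1, a paraspeckle protein, was higher in males (0.62, SE 0.130). In total RNA 0 of 30 were called in females and 3 were lower in males, led by Syncrip (−0.38, SE 0.074), which binds mRNA in the cytoplasm.

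Of 42 core spliceosome genes 1 was higher in ribosomal RNA of females, Snrnp70 of the U1 particle (0.74, SE 0.183), and 0 were called in males. In total RNA 2 of 43 were higher and 2 lower in females, and 1 was higher and 5 lower in males, shares near the 8.49% and 14.2% of all genes. Snrpd1, a protein of the Sm ring, was higher in both (0.53, SE 0.116, and 0.42, SE 0.115), and Snrpa of the U1 particle was lower in males (−0.51, SE 0.135). Of 16 factors of nonsense-mediated decay, 1 was higher in ribosomal RNA of each sex, the helicase gene Upf1 in females (0.57, SE 0.163) and Magoh of the exon junction complex in males (0.38, SE 0.108). In total RNA 2 were lower in females and 0 were called in males, and Upf2 fell by 0.34 (SE 0.085) on the log2 scale in females.

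The lists were also counted between the RNA types in controls, where 35.2% of all genes were higher and 43.1% lower in ribosomal RNA, with a median of −0.10. Of 43 core spliceosome genes 28 were higher and 6 lower, with a list median of 0.54, and with RLE factors 26 and 10, with a median of 0.31. Sf3b2, a protein of the U2 particle, was higher by 1.19 (SE 0.075), and Snrpf, a protein of the Sm ring, by 1.57 (SE 0.115). Of 16 factors of nonsense-mediated decay 9 were higher and 3 lower, with a median of 0.41, and with RLE factors 8 and 5, with a median of 0.18. Rbm8a, which joins Magoh in the exon junction complex, was higher by 1.02 (SE 0.073).

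Of the other hnRNP-type proteins 6 of 30 were higher and 15 lower in ribosomal RNA of controls, with a median of −0.29, and with RLE factors 4 and 21, with a median of −0.51. Ybx1 had a difference of −2.24 (SE 0.099) and Ptbp3, a relative of the polypyrimidine tract binding protein, one of −1.9998 (SE 0.128). Of 15 kinases and phosphatases 9 were higher and 3 lower, and with RLE factors 7 and 4. Ppp1cb had a difference of −1.02 (SE 0.094). The 24 SR-related proteins split into 9 higher and 10 lower, and with RLE factors into 7 and 13, and Pnn, a nuclear speckle protein, had −1.09 (SE 0.088). Of 8 import and export factors 4 were higher and 3 lower, and with RLE factors 3 and 4, and Tnpo1, a transportin, had −0.94 (SE 0.094). Whether lists and members differed was not tested.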

How the data were processed

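The authors deposited 1 table with a whole count per gene and library, and 5 summary lines, which entered neither the library sizes nor any test. Per the labels, libraries were made with the QuantSeq 3' kit from 500 ng of RNA and read for 50 bases. Per the submitters' processing notes, UMI-tools, STAR, HTSeq, build GRCm39, DESeq2 1.40.1 and R 4.3.0 were used. The strand setting of the counting is not given in the sources used here. Symbols were matched for 52029 of 57010 identifiers.

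Counts were tested as deposited with edgeR 4.0.16 in R 4.3.3: filterByExpr, TMM, glmQLFit and glmQLFTest, in fits of 28 ribosomal, 28 total or all 56 libraries with group means. Adjustment was by Benjamini-Hochberg over all genes of a contrast, with a threshold of 0.05. Standard errors come from the F statistic, and edgeR limits p-values by a Poisson bound, so that a p can be larger than an interval implies. CPM values use TMM factors over all 56 libraries, and an overlap is stated on that scale unless another is named. On simulated counts with the spread of these libraries, 100 genes were changed by 0.5 and 100 by 1 on the log2 scale. In the ribosomal comparison of females, over 9098 genes, edgeR recovered 11% and 60% of them, and 1.4% of genes called were unchanged ones. In that of total RNA, over 12860 genes, it recovered 34% and 79%, and 8.1% of genes called were unchanged ones. Between the RNA types in controls, over 12546 genes, only ribosomal libraries of female controls were changed, so the mean differences were 0.25 and 0.5. There edgeR recovered 7% and 57%, and 1.5% of genes called were unchanged ones. The real comparisons of females called 1533 and 1092 genes, and recovery with that many changed genes was not tested.

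Members and lists were chosen with earlier results of these data known. Up to 6 called members per direction and comparison are named by lowest p, with Elavl1 added. Genes of a list are named from the 3 of lowest p in a comparison, the first included where it was called, in the comparisons described. Alternatives were DESeq2 1.42.0, weighted limma-voom (limma 3.58.1), RLE size factors, keeping every gene with a count, the 14 compared libraries alone, a mitochondrial covariate, the mouse as a block, and leaving out libraries. Leaving out the 2 libraries with over 250 CPM of kidney markers, leaving out female labelled knockouts 5, 6 and 12 in total RNA, leaving out total libraries above 19% in contrasts between RNA types, and the mean of both sexes were added after seeing the data. Ribosomal and total libraries with the same sex, genotype and number were taken as the same mouse, as the labels give it. Across genes, the log levels of a mouse's libraries, each taken relative to its group, correlated by 0.077 on average for control females and −0.199 for control males. The labelled knockouts gave 0.218 for females and 0.077 for males. Sequences and transcript types come from GENCODE M21 (GRCm38), and copies were sought with BLAST+ 2.17.0 at 95% identity over at least 200 bases.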

Additional observations from a re-analysis of the deposited data

Results flagged for a closer look

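In each group of 7 libraries, the highest or lowest CPM of a member was set apart where its gap to the nearest library exceeded Dixon's 95% critical share of the group's range, for 230 combinations of member and group with a mean count of at least 10. This held for 26 of them, and chance gives about 1 in 20.

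Male control 20 in ribosomal RNA stood apart for 8 members. It was the highest of its group for Srsf11 at 490.8 CPM, Srsf2 at 465.4 CPM, Hnrnpm at 419.4 CPM, Hnrnpc at 159.0 CPM, Hnrnpd at 159.0 CPM and Hnrnpa3 at 39.17 CPM, and the lowest for Srsf7 at 96.78 CPM and Hnrnpll at 11.52 CPM. Male labelled knockout 2 in ribosomal RNA, the library of lowest depth, was the highest for Hnrnpm at 336.2 CPM, Srsf5 at 180.4 CPM, Hnrnph1 at 82.0 CPM and Hnrnpa1 at 24.6 CPM, and the lowest for Hnrnpdl at 106.6 CPM. Male control 26 was the highest in total RNA for Hnrnpm at 415.5 CPM, Hnrnpr at 87.1 CPM and Hnrnpa3 at 28.28 CPM, and in ribosomal RNA for Hnrnpa1 at 18.41 CPM.

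In ribosomal RNA of females, labelled knockout 5 was the highest for Hnrnpdl at 255.6 CPM and Srsf3 at 198.0 CPM, and labelled knockout 12 for Hnrnpd at 181.2 CPM. Female control 18 was the highest for Hnrnpul2 at 102.8 CPM and Hnrnpa1 at 38.89 CPM. In total RNA, female control 14 was the lowest for Hnrnpa0 at 107.5 CPM and female labelled knockout 1 the lowest for Hnrnph2 at 2.345 CPM. Male labelled knockout 12 was the highest for Srsf5 at 177.5 CPM and male control 21 for Srsf6 at 86.96 CPM.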

How the results depend on the processing

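No member's difference called in the fits without an alternative changed its direction under the alternatives run. The members' median, which has no test, did so in 9 cases: the female ribosomal effect (0.04) was −0.07 without the filter and −0.23 with the mitochondrial covariate, the ribosomal difference between the sexes (−0.07) was 0.01 and 0.13, the ribosomal mean of both sexes (0.02) was −0.05, −0.12 and, with limma-voom, −0.005, and the female effect beyond total RNA (−0.06) was 0.02 with RLE factors and 0.01 with DESeq2. Hnrnpul1 was not called between the RNA types in controls (edgeR adjusted p = 0.29), and the alternatives called it in opposite directions. It was higher in ribosomal RNA with limma-voom (0.12; limma-voom adjusted p = 0.0443). With RLE factors (−0.15; edgeR adjusted p = 0.0306) and DESeq2 (−0.15; DESeq2 adjusted p = 0.0252) it was lower. Counts below are of members called unless all genes are named, and smaller changes in these counts are not all listed. In ribosomal RNA the female knockout comparison (1) gave 2 with limma-voom, 0 with the 14 libraries alone, and 0 to 3 without 1 library; all genes came to 936 with the 14 alone and 508 with the mitochondrial covariate, in place of 1533. The male comparison (0) gave 1 without the filter, 4 with limma-voom, 1 with the 14 alone and 0 to 1 without 1 library; all genes came to 1749 with limma-voom and 538 to 821 without 1 library, in place of 815. The difference between the sexes (0) gave 1 without the filter and 1 without libraries under 0.75 M counts; all genes came to 626 without the filter, 684 with limma-voom, 23 with the covariate and 138 to 498 without 1 library, in place of 312. Control males against females (2) gave 4 with limma-voom, 1 with the 14 alone and 1 to 4 without 1 library; all genes came to 1874 with limma-voom and 518 to 1289 without 1 library, in place of 694. The mean of both sexes (3) gave 1 without libraries under 0.75 M counts. It gave 1 higher and 1 lower member with RLE factors, and the same without the libraries with over 250 CPM of kidney markers. With the mitochondrial covariate it gave 1 higher and 3 lower members.

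In total RNA the female comparison (1) gave 2 with DESeq2, 2 with limma-voom, 2 without libraries above 19% of reads outside genes, and 1 to 2 without 1 library. The male comparison (5) gave 3 without the filter, 2 without libraries above 19% and 3 to 6 without 1 library; all genes came to 645 without libraries above 19% and 1134 to 2127 without 1 library, in place of 1824. The difference between the sexes (0 of all genes) gave 4 genes without the filter, 22 with DESeq2, 3 without libraries above 19% and 11 without female labelled knockouts 5, 6 and 12, with 1225 genes at an unadjusted p under 0.05. Control males against females (1) gave 0 without the filter, 0 with the 14 alone, 0 without libraries above 19% and 0 to 2 without 1 library. The mean of both sexes (7) gave 4 without the filter. It gave 1 higher and 4 lower members without libraries above 19%. The split was the same without the libraries with over 250 CPM of kidney markers, and without female labelled knockouts 5, 6 and 12.

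The female effect beyond total RNA (0) gave 1 without the filter, with limma-voom, without libraries under 0.75 M counts (there a lower one, elsewhere a higher one) and without those above 19%, and 0 to 1 without 1 library; all genes came to 261 with the mouse as a replicate block and 88 to 566 without 1 library, in place of 434. For the male effect (16 of all genes) the genes called came to 53 without the filter, 45 with DESeq2, 37 with limma-voom, 27 without libraries under 0.75 M counts, 7 without those above 19% and 4 to 22 without 1 library. Between the RNA types the replicate block gave 21 members in controls and 22 in labelled knockouts, and it lost no member's call. The cause of these changes was not tested, and fits that leave libraries out also rest on fewer of them. Hnrnpf and Hnrnph2 passed the count filter in total but not in ribosomal RNA, and Srsf12 in neither.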
